A study of Mus musculus with 12 samples.

Results

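YAP, encoded by Yap1, is a transcriptional coactivator that is held in the cytoplasm when the Hippo kinases phosphorylate it and that works in the nucleus by binding transcription factors of the TEAD family. Its best known target genes encode secreted matrix proteins, cytoskeletal adaptors and parts of its own feedback control. In kidney tubules the pathway is known for its part in cell shape, growth and repair after injury. The 8 genes described here are the targets Ctgf (also written Ccn2), Cyr61 (Ccn1), Ankrd1, Axl, Ajuba and Amotl2, together with Yap1 itself and its partner Tead1. They were found by their Entrez identifiers, and all 8 listed genes had a row among the 13124 genes of the deposited count table.

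RNA was read from whole kidneys of male C57BL/6 mice, flushed with saline, 24 h after sham surgery or ischaemia-reperfusion injury (IRI), in which blood flow to a kidney is stopped and then restored. There were 4 groups of 3 kidneys: IRI after anti-G-CSFR, which targets the receptor of the neutrophil growth factor G-CSF (antibody VR81, kidneys 7 to 9), IRI after anti-C5, which targets a complement protein (antibody BB5.1, kidneys 10 to 12), IRI after an isotype control antibody (kidneys 4 to 6), and sham (kidneys 1 to 3). Antibodies were given 24 h before IRI. Sham mice were given none, so isotype against sham joins injury with injection. All cells of the organ were pooled, so more cells of a type and more RNA per cell cannot be told apart.

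Each kidney gave between 13200930 and 16324215 counts. Levels are CPM, read counts made comparable between libraries of different size, after edgeR's TMM scaling, whose factors ran from 1.10 to 1.11 in isotype kidneys and from 0.921 to 1.04 in the other 9. The tissue label was checked against its markers: the summed level of 6 proximal tubule markers was 7108 to 8290.2 CPM under anti-G-CSFR, 5376 to 8603 CPM under anti-C5, 1455 to 1793 CPM in isotype kidneys and 8178 to 8909.9 CPM in sham kidneys. Within the antibody groups, kidney 9 and kidney 11 stood apart from the others of their group. The injury marker Havcr1, which encodes KIM-1, was at 345 CPM in kidney 9 and 17.2 and 44.3 CPM in the other anti-G-CSFR kidneys. It was at 1507 CPM in kidney 11 and 31.7 and 14.5 CPM in the other anti-C5 kidneys. Isotype kidneys held 5672, 3089.8 and 3032 CPM of it, and sham kidneys 3.35, 14.3 and 3.08 CPM.

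TEAD proteins bind the hexamer GGAATG, which reads CATTCC on the other strand. The RefSeq promoter table (GRCm38.p6) held 6 of the 8 genes, all but Ctgf and Tead1. The 250 bases before the RefSeq start held at least 1 such hexamer, on either strand, in 6 of these 6 genes, against 12.6% of all 32851 windows in the table and 10.8% of the 13375 windows of genes in the count table. The windows of Ankrd1, Amotl2 and Yap1 overlap an exon of the GENCODE annotation, which also gave the gene coordinates printed with the values, so by that annotation they are not all sequence before a gene. Those of Ankrd1 and Amotl2 lie inside the GENCODE span of their own gene. The windows of Cyr61, Ajuba and Axl overlap no GENCODE exon. The 8 matches are shown in 30 bases each, 5′ to 3′ on the strand that reads GGAATG, with the hexamer in capitals, because they are the stretch these promoters have in common.
Cyr61, chr3:145650071-145650100, plus strand: tcaaacatctcaGGAATGttggttggcgcg
Ankrd1, chr19:36120037-36120066, minus strand: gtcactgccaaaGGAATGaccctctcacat
Ankrd1, chr19:36119950-36119979, minus strand: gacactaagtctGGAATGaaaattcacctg
Axl, chr7:25788949-25788978, minus strand: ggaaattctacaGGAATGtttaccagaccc
Ajuba, chr14:54577830-54577859, plus strand: gaggggcactgtGGAATGtatccatcaacg
Ajuba, chr14:54577808-54577837, plus strand: ttgtttacagttGGAATGcgcggaggggca
Amotl2, chr9:102717727-102717756, minus strand: gctgctatgccaGGAATGtgagagtttcag
Yap1, chr9:8004720-8004749, minus strand: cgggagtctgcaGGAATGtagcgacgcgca

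Ankrd1 and Ajuba each held 2 matches, which 1.02% of all windows did. The hexamer nearest to its RefSeq start was that of Amotl2, at bases −65 to −60, and the farthest was that of Axl, at −233 to −228. The whole 250-base window of Ajuba, read along the gene (chr14:54577662-54577911, minus strand, both hexamers in capitals as CATTCC), shows the pair close together in its upstream part.
Ajuba: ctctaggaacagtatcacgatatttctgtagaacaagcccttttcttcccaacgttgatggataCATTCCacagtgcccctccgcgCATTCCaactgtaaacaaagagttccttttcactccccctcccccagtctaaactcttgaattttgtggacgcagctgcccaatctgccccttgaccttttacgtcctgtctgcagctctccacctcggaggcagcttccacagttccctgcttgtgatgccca
The window of Cyr61 (chr3:145649986-145650235, minus strand) held its single hexamer nearer to the start.
Cyr61: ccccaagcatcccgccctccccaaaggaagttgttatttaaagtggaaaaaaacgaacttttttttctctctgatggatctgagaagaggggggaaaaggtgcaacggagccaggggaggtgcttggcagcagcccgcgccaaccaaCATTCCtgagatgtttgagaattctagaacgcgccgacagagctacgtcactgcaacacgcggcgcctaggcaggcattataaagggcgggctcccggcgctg
The letters TGANTCA of the AP-1 motif were in 0 of the 6 windows, against 6.75% of all windows, and the CArG box bound by SRF was in 0 of 6, against 1.47%. At such low shares 0 is the likely count in 6 windows of any genes, so these counts do not set the promoters apart. Among 14 windows of other YAP target genes, 2 held the TEAD hexamer (14.3%). Among 11 windows of genes of the MRTF-SRF pathway, which answers to actin, 7 held a CArG box (63.6%) and 4 held the hexamer (36.4%). Among 7 windows of genes of the Hippo kinase core, 2 held the hexamer (28.6%). A match describes letters in a window and is not a measured binding site.

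**Figure D1:**
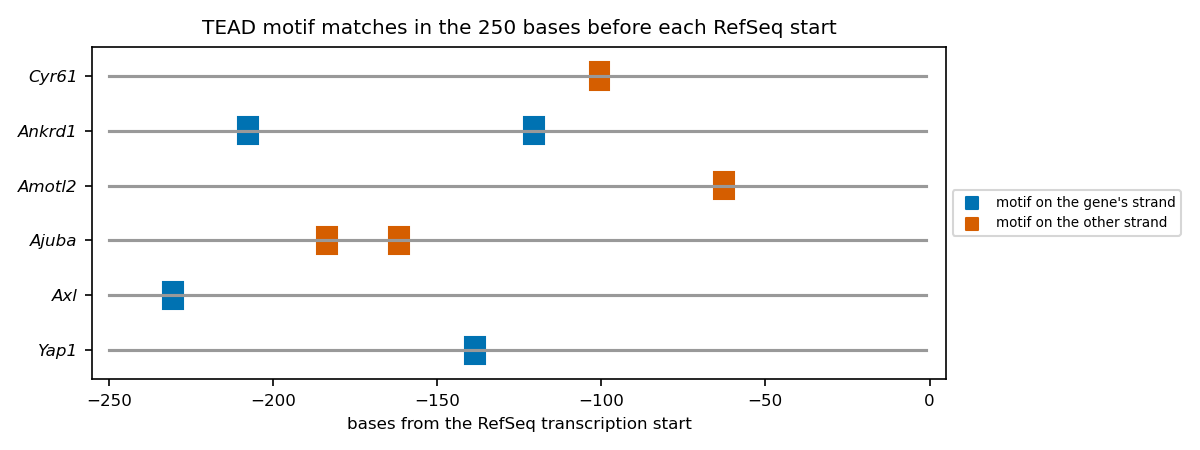
Position of each GGAATG hexamer in the 250 bases before the RefSeq start of the 6 genes with a promoter entry; the horizontal axis is bases from the RefSeq start and colour gives the strand. Ankrd1 and Ajuba have 2 matches each and the other genes 1.

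The comparison of isotype IRI with sham asked how injury, joined with antibody injection, moved these genes. All 8 rose, with every isotype kidney above every sham kidney. Of all genes tested, 32.1% rose and 62.8% were called in either direction, and 35.5% had all isotype kidneys above all sham kidneys, so much of the transcriptome differed and a rise alone does not set a gene apart. The median log2 change of the 8 genes was 1.35, against 0.03 over all genes, and 6.58% of all genes had a log2 change above that median. In anti-G-CSFR against isotype all 8 fell (background 32% lower, 63.5% called) with no overlap between the groups (background 34.1%), and the median log2 change was −1.37 against −0.02 over all genes. In anti-C5 against isotype all 8 also fell (background 29.8% lower, 60.3% called) with no overlap (background 31%), with a median of −1.26 against −0.01. These 3 comparisons share the isotype kidneys, so they are not independent of each other.

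**Figure D2:**
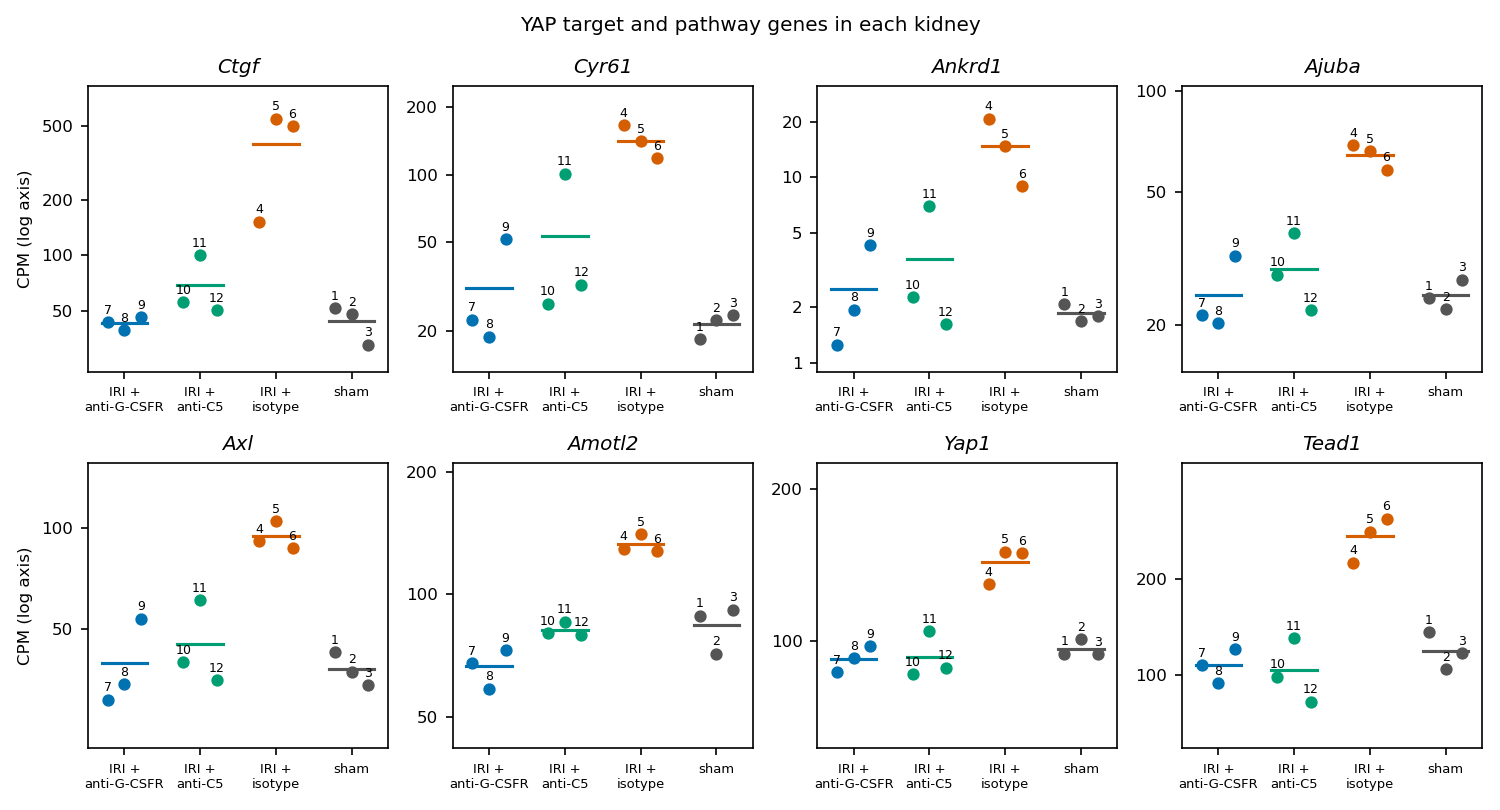
CPM of each gene on a log axis in each of the 12 kidneys, numbered, with a bar at the group mean (n = 3 kidneys a group). In every panel the 3 isotype kidneys lie above the other 9, and kidneys 9 and 11 lie highest in their groups.

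**Figure D3:**
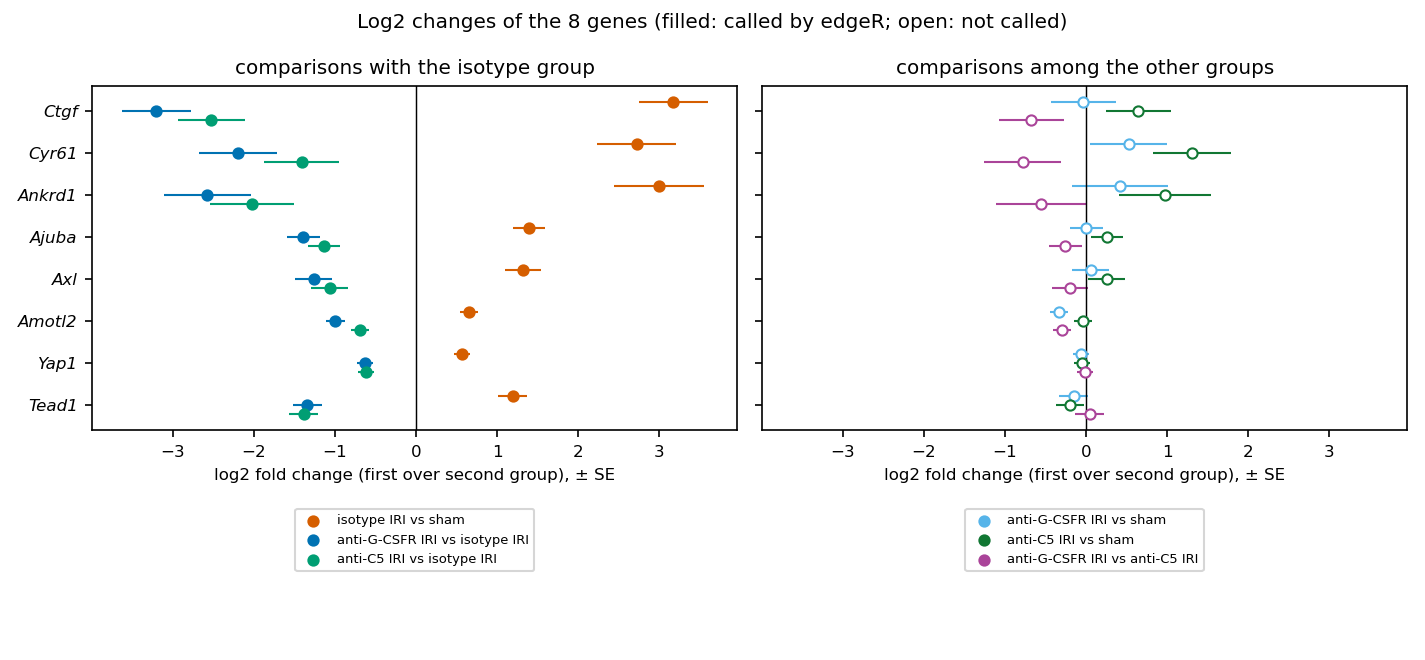
Log2 fold change of each gene, first-named over second-named group, with its SE, in the 3 comparisons with the isotype group (left) and the 3 others (right). All 24 changes on the left are called by edgeR at an adjusted p below 0.05 and none of the 24 on the right is.

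Ctgf (Entrez 14219, GRCm38 chromosome 10, 24595442 to 24598683, plus strand) encodes connective tissue growth factor, a secreted matricellular protein linked to fibrosis. It stood at 43.7, 39.6 and 46.6 CPM in anti-G-CSFR kidneys, 56.1, 101 and 50.8 CPM in anti-C5 kidneys, 152, 547 and 498 CPM in isotype kidneys, and 51.8, 48.0 and 32.9 CPM in sham kidneys. The anti-G-CSFR values lay inside the sham range, and kidney 4 held far less than the other 2 isotype kidneys. Ctgf rose 9.02-fold in isotype against sham, a log2 change of 3.17 ± 0.425 (SE; edgeR quasi-likelihood test, BH-adjusted p = 7.17e-05). This was the highest estimate of the 8 genes, but that of Ankrd1 lay within its SE. Without kidney 4 the log2 change was 3.56. Under anti-G-CSFR it fell by 3.20 ± 0.426 on the log2 scale against isotype (edgeR adjusted p = 7.35e-05), and under anti-C5 by 2.53 ± 0.413 (edgeR adjusted p = 0.000342). An exon of the transcript Gm15270 lies on the opposite strand of Ctgf, and the strand setting of the counting is not given in the sources used here.

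Cyr61 (Entrez 16007, chromosome 3, 145646976 to 145649981, minus strand) encodes another classical secreted target, an integrin-binding matrix protein induced early in many tissues under stress. It stood at 22.6, 18.9 and 51.8 CPM in anti-G-CSFR kidneys, 26.6, 101 and 32.3 CPM in anti-C5 kidneys, 166, 141 and 119 CPM in isotype kidneys, and 18.5, 22.5 and 23.7 CPM in sham kidneys. Kidney 11 came close to the lowest isotype kidney, while each of the other anti-C5 kidneys lay only just above the sham range. The rise in isotype against sham was 6.59-fold (log2 change 2.72 ± 0.491, edgeR adjusted p = 0.000538). Against isotype it fell by 2.19 ± 0.479 on the log2 scale under anti-G-CSFR (edgeR adjusted p = 0.00189) and by 1.41 ± 0.465 under anti-C5 (edgeR adjusted p = 0.0203). The anti-C5 call was the least firm of the 24: it was lost without kidney 4 (−1.28, adjusted p = 0.0658), without kidney 10 (−1.09, 0.0751) and without kidney 12 (−1.15, 0.0789), with adjusted p from 2.61e-06 to 0.0789 over the alternatives. Without kidney 11 the log2 change was −2.27, which is 1.82 times larger as a fold.

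Ankrd1 (Entrez 107765, chromosome 19, 36111961 to 36120099, minus strand) encodes an ankyrin-repeat protein of muscle sarcomeres and nuclei that is widely used as a readout of YAP activity. It was the least abundant of the 8, at 1.26, 1.94 and 4.31 CPM in anti-G-CSFR kidneys, 2.26, 7.02 and 1.62 CPM in anti-C5 kidneys, 20.7, 14.7 and 8.98 CPM in isotype kidneys, and 2.08, 1.69 and 1.78 CPM in sham kidneys. Kidney 11 came within reach of the lowest isotype kidney. Ankrd1 rose 7.99-fold in isotype against sham (log2 change 3.00 ± 0.550, edgeR adjusted p = 0.000603). It fell by 2.57 ± 0.537 on the log2 scale under anti-G-CSFR and by 2.02 ± 0.516 under anti-C5 (edgeR adjusted p = 0.0014 and 0.00536). Without kidney 9 the anti-G-CSFR change was −3.19 (1.53 times larger as a fold), and without kidney 11 the anti-C5 change was −2.92 (1.87 times). Of 6 muscle markers, 5 had no entry in the table, and the sixth, Des, was at 7.24 to 15.2 CPM under anti-G-CSFR, 10.8 to 17.4 CPM under anti-C5, 20.1 to 24.0 CPM in isotype kidneys and 8.70 to 10.8 CPM in sham kidneys.

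Axl (Entrez 26362, chromosome 7, 25757273 to 25788705, minus strand) encodes a receptor tyrosine kinase that binds Gas6 and helps cells take up dying neighbours. It stood at 30.7, 34.1 and 53.5 CPM in anti-G-CSFR kidneys, 39.6, 60.7 and 35.0 CPM in anti-C5 kidneys, 91.3, 105 and 87.1 CPM in isotype kidneys, and 42.5, 37.2 and 33.8 CPM in sham kidneys. It rose 2.49-fold in isotype against sham (log2 change 1.32 ± 0.227, edgeR adjusted p = 0.000391). Set against isotype, Axl fell by 1.26 ± 0.227 on the log2 scale in anti-G-CSFR kidneys (edgeR adjusted p = 0.000541) and by 1.06 ± 0.226 in anti-C5 kidneys (edgeR adjusted p = 0.00175). The highest value of either antibody group, 60.7 CPM in kidney 11, was below every isotype kidney.

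The receptors of the Axl family and the ligands of this family did not move as one group. Of 5 listed genes, Axl included, 3 rose and 2 fell in isotype against sham (of all genes, 32.1% rose and 62.8% were called either way). Gas6, the ligand of Axl, stood at 388, 403 and 459 CPM under anti-G-CSFR, 391, 397 and 450.4 CPM under anti-C5, 187, 114 and 105 CPM in isotype kidneys, and 433, 447 and 426 CPM in sham kidneys. It fell in isotype against sham, with a log2 change of −1.69 ± 0.190 (edgeR adjusted p = 2.23e-05). Mertk, a receptor of phagocytes and other cells from the same family, also fell (−0.91 ± 0.180, adjusted p = 0.000944), while Tyro3, the remaining receptor, rose (1.27 ± 0.176, adjusted p = 9.20e-05). Pros1, which encodes protein S, a ligand in this receptor family, rose by 1.60 on the log2 scale. In each antibody group against isotype, 2 of the 5 rose and 3 fell. Of all genes, 32% fell and 63.5% were called either way under anti-G-CSFR, and 29.8% and 60.3% under anti-C5.

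Ajuba and Amotl2 encode proteins that act on the Hippo pathway as well as being its targets. Ajuba (Entrez 16475, chromosome 14, 54567472 to 54577558, minus strand) encodes a LIM-domain scaffold of cell junctions that restrains the LATS kinases. It stood at 21.4, 20.3 and 32.2 CPM in anti-G-CSFR kidneys, 28.3, 37.7 and 22.2 CPM in anti-C5 kidneys, 69.1, 66.1 and 58.2 CPM in isotype kidneys, and 24.1, 22.3 and 27.3 CPM in sham kidneys. Ajuba rose 2.62-fold in isotype against sham (log2 change 1.39 ± 0.202, edgeR adjusted p = 0.000121). It fell by 1.39 ± 0.202 under anti-G-CSFR and by 1.13 ± 0.201 under anti-C5 on the log2 scale (edgeR adjusted p = 0.000136 and 0.000568).

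Amotl2 (Entrez 56332, chromosome 9, 102716672 to 102733418, plus strand) encodes an angiomotin-like protein that binds YAP and keeps it out of the nucleus. It stood at 67.9, 58.7 and 73.1 CPM in anti-G-CSFR kidneys, 80.3, 85.7 and 79.6 CPM in anti-C5 kidneys, 129, 140.3 and 128 CPM in isotype kidneys, and 88.6, 71.5 and 91.7 CPM in sham kidneys. The rise in isotype against sham was small, 1.58-fold, and the isotype kidneys lay close together (log2 change 0.66 ± 0.111, edgeR adjusted p = 0.000332). Amotl2 fell by 0.99 ± 0.112 on the log2 scale under anti-G-CSFR (edgeR adjusted p = 2.75e-05) and by 0.69 ± 0.111 under anti-C5 (edgeR adjusted p = 0.000298).

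Yap1 and Tead1 encode the coactivator and its DNA-binding partner. Yap1 (Entrez 22601, chromosome 9, 7931999 to 8004596, minus strand) stood at 86.8, 92.5 and 97.8 CPM in anti-G-CSFR kidneys, 86.0, 105 and 88.7 CPM in anti-C5 kidneys, 129.7, 150.2 and 149 CPM in isotype kidneys, and 94.5, 101 and 94.3 CPM in sham kidneys. Its rise was the smallest of the 8, 1.48-fold (log2 change 0.57 ± 0.0996, edgeR adjusted p = 0.000454), and 22.04% of all genes changed upwards by at least as much. It fell by 0.63 ± 0.0998 under anti-G-CSFR and by 0.62 ± 0.0998 under anti-C5 on the log2 scale (edgeR adjusted p = 0.000229 and 0.000311). An exon of Gm20416 lies on the opposite strand, with the same limit as for Ctgf.

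Tead1 (Entrez 21676, chromosome 7, 112679318 to 112906807, plus strand) stood at 107, 94.0 and 120.3 CPM in anti-G-CSFR kidneys, 98.8, 130.5 and 82.3 CPM in anti-C5 kidneys, 225, 281 and 309 CPM in isotype kidneys, and 136, 104 and 117 CPM in sham kidneys. It rose 2.28-fold in isotype against sham (log2 change 1.19 ± 0.179, edgeR adjusted p = 0.000155). It fell by 1.34 ± 0.180 under anti-G-CSFR and by 1.39 ± 0.180 under anti-C5 on the log2 scale (edgeR adjusted p = 7.82e-05 and 8.33e-05). RNA levels do not show where the YAP protein was or whether it was phosphorylated.

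Levels can be ordered between genes per kilobase of annotated exon. In isotype kidneys Ctgf led with 139.5 ± 75.2 CPM per kb (SD, n = 3), followed by Cyr61 at 70.4 ± 11.7 and Amotl2 at 21.1 ± 1.08 CPM per kb. Tead1 (20.0 ± 3.17), Axl (18.7 ± 1.82), Ajuba (17.7 ± 1.53) and Yap1 (15.5 ± 1.25 CPM per kb) came next, and Ankrd1 was last at 5.13 ± 2.03 CPM per kb. Neighbours in this order lay within their summed SDs, except for the steps from Cyr61 to Amotl2 and from Yap1 to Ankrd1. In sham kidneys the order was Ctgf at 15.5 ± 3.49, Amotl2 at 13.3 ± 1.73, Cyr61 at 10.7 ± 1.35, Yap1 at 10.4 ± 0.416, Tead1 at 8.78 ± 1.17, Axl at 7.52 ± 0.867, Ajuba at 6.74 ± 0.698 and Ankrd1 at 0.641 ± 0.0707 CPM per kb. Here the steps from Yap1 to Tead1 and from Ajuba to Ankrd1 were larger than the summed SDs, and the other neighbours were not separated by more than that.

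The remaining comparisons asked whether antibody-treated IRI kidneys differed from sham kidneys and from each other. In anti-G-CSFR against sham 0 of the 8 genes passed the test (edgeR; background 0%), and likewise 0 of 8 in anti-C5 against sham (background 0%) and 0 of 8 in anti-G-CSFR against anti-C5 (background 0%). Limma-voom also called 0 of them. DESeq2 called 0 of those to which it gave an adjusted p. It gave no adjusted p to Cyr61, Ankrd1, Amotl2, Ajuba and Axl in anti-G-CSFR against sham. The same was so for Ankrd1 and Ajuba in anti-C5 against sham. At an unadjusted p below 0.05 the edgeR fit had 1 of the 8 in each of these comparisons, and 778, 1487 and 207 of all genes in the same order. These counts do not show that the levels were alike, because the intervals are wide for several genes.

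Against sham, the anti-G-CSFR log2 change of Ctgf was −0.03 (95% confidence interval −0.90 to 0.84), that of Cyr61 was 0.53 (−0.52 to 1.57) and that of Ankrd1 was 0.42 (−0.86 to 1.71). The intervals were narrower for the other genes, with Yap1 at −0.07 (−0.28 to 0.15), Tead1 at −0.15 (−0.54 to 0.24), Ajuba at 0.00311 (−0.44 to 0.45) and Axl at 0.06 (−0.44 to 0.55). Amotl2 had the unadjusted call, at −0.33 (−0.58 to −0.09, edgeR unadjusted p = 0.0111, adjusted p = 0.807), with all 3 anti-G-CSFR kidneys below 2 of the 3 sham kidneys.

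Against sham, the anti-C5 log2 change was 1.31 for Cyr61 (0.27 to 2.35, edgeR unadjusted p = 0.018, adjusted p = 0.371), whose 3 anti-C5 kidneys all lay above the 3 sham kidneys; 9.36% of all genes had such an order. It was 0.64 for Ctgf (−0.23 to 1.51) and 0.98 for Ankrd1 (−0.27 to 2.22). The intervals reached 0.70 for Ajuba, 0.75 for Axl, 0.21 for Amotl2, 0.16 for Yap1 and 0.19 for Tead1. Between the antibodies, Amotl2 was lower under anti-G-CSFR than under anti-C5 in every kidney (log2 change −0.30, −0.54 to −0.06, edgeR unadjusted p = 0.0203, adjusted p = 1), and so was Ctgf (−0.68, −1.55 to 0.20); 2.38% of all genes had such an order. The other 6 genes overlapped between the antibody groups.

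The mean of each antibody group hid 1 kidney that differed from its group. On a log2 scale on which the sham mean is 0% and the isotype mean 100%, kidney 11 of the anti-C5 group stood at 82.5% for Cyr61, 65.4% for Ankrd1, 52.1% for Axl, 44.6% for Ajuba, 40.4% for Ctgf, 20.4% for Yap1, 11.8% for Tead1 and 5.78% for Amotl2. Kidney 9 of the anti-G-CSFR group stood at 46.8% for Cyr61, 41.2% for Ankrd1, 38.3% for Axl and 28.4% for Ajuba, but at 3.37% for Ctgf, 3.22% for Yap1, 1.86% for Tead1 and −28.7% for Amotl2. In both kidneys Cyr61, Ankrd1, Axl and Ajuba stood higher on this scale than Yap1, Tead1 and Amotl2. This does not part targets from the rest: Amotl2 is itself a target, and the target Ctgf stood near Yap1 in kidney 9. The scale is coarse for genes with a small rise. Sham kidneys alone ran from −33.4% to 20.5% for Amotl2 and from −15.4% to 16.8% for Tead1.

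The median position of the 8 genes was 15.9% in kidney 9 and 42.5% in kidney 11, near the medians of 16.5% and 38.3% over all 4207 genes that rose in isotype against sham. In the other 4 antibody-treated kidneys the median of the 8 genes was between −15.9% and 7.53%. The neutrophil markers did not move with kidney 9: 6 of them summed to 2.71, 1.72 and 2.27 CPM in kidneys 7, 8 and 9, with Clec4d at 0 in kidney 7 and Cxcr2 at 0 in kidney 9. They summed to 109 CPM in kidney 11 and to 7.19 and 12.9 CPM in kidneys 10 and 12. The part of neutrophils in the values of kidney 11 was not tested.

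**Figure D4:**
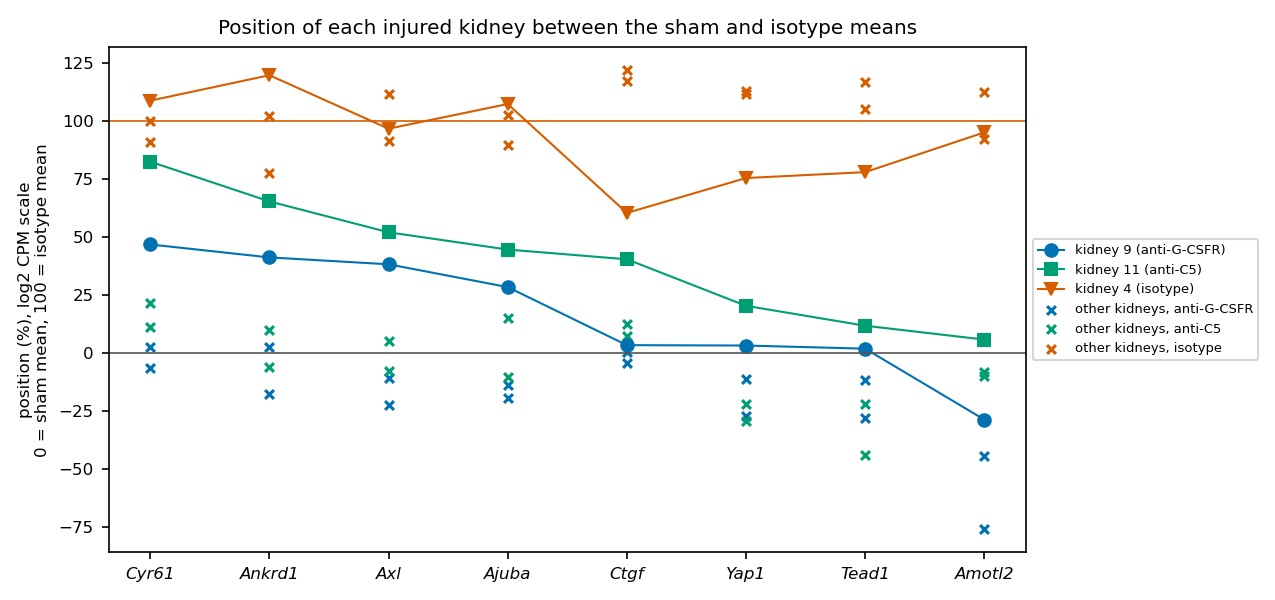
Position of each injured kidney for each gene on a log2 CPM scale set to 0 at the sham mean and 100 at the isotype mean; lines only join the values of 1 kidney. Kidneys 9 and 11 are high for Cyr61, Ankrd1, Axl and Ajuba and lower for Yap1, Tead1 and Amotl2, and kidney 4 is lowest of its group for Ctgf, Yap1 and Tead1.

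Ctgf and Cyr61 parted within the isotype group. Kidney 4 had the lowest Ctgf of that group (60.4% on the same scale), and also the lowest Yap1 and Tead1 (75.5% and 78.0%). It had the highest Cyr61, Ankrd1 and Ajuba (108.8%, 119.8% and 107.4%). The same kidney had the highest Havcr1 of the group, 5672 CPM, and the lowest Lcn2, which encodes the injury protein NGAL, at 1018 CPM against 2849 and 2773 CPM in kidneys 5 and 6. Its endothelial markers summed to 390.2 CPM, against 540.7 and 539.9 CPM, and its podocyte markers to 457 CPM, against 618 and 622 CPM. The 6 fibroblast and pericyte markers summed to 782, 892 and 838 CPM in kidneys 4, 5 and 6. These sums hide markers that moved in opposite directions. On the log2 scale kidney 4 differed from the mean of kidneys 5 and 6 by −0.84 (Acta2), −0.35 (Pdgfra), −0.30 (Dcn) and −0.07 (Pdgfrb). The same difference was 0.17 for Col1a1 and 0.28 for Col3a1. The part of these cell types in the Ctgf value of kidney 4 was not tested.

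Markers of injured tubule and of fibroblasts and pericytes were, like the 8 genes, highest in isotype kidneys. The 6 injured tubule markers summed to 149 to 683 CPM under anti-G-CSFR, 139 to 2230.4 CPM under anti-C5, 8086 to 8333 CPM in isotype kidneys and 149 to 157 CPM in sham kidneys. The 6 fibroblast and pericyte markers summed to 171 to 406 CPM, 200.5 to 521 CPM, 782 to 892 CPM and 188 to 278 CPM in the same order of groups, with 5 of the 6 called higher in isotype against sham, 5 called lower under anti-G-CSFR against isotype and 3 called lower in anti-C5 kidneys against isotype. Of the injured tubule markers, 6 of 6 rose in isotype against sham, 6 fell under anti-G-CSFR and 4 fell in anti-C5 kidneys against isotype (of all genes, 32.1% rose, 32% fell and 29.8% fell in the same order). One of these markers, Sox9, passed the table's low-count filter only through the isotype kidneys, where it is high, so its rise is not separate support. The neutrophil markers summed to 1.72 to 2.71 CPM, 7.19 to 109 CPM, 38.0 to 105 CPM and 7.40 to 9.72 CPM. Of these, Csf3r, Retnlg, Clec4d and Cxcr2 also passed the low-count filter only with the isotype kidneys. Their higher isotype levels are not separate support. No injured tubule or fibroblast marker was at 0 in any kidney, and the part of these cells in the changes of the 8 genes was not tested.

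The counts of further pathway genes are read against all genes tested, of which 32.1% rose and 62.8% were called either way in isotype against sham, 32% fell under anti-G-CSFR against isotype, and 29.8% fell in anti-C5 kidneys against isotype. Among coactivators, TEAD factors and their cofactors, 8 of 10 listed genes were measured; 5 rose, Yap1 and Tead1 among them, 0 fell, and the median log2 change was 0.62. Vgll3, a TEAD cofactor, rose by 2.64 ± 0.362 on the log2 scale, Tead4 by 1.30 ± 0.215, and Wwtr1, which encodes the YAP relative TAZ, by 0.68 ± 0.123 (edgeR adjusted p = 8.26e-05, 0.0003 and 0.000548). Wwtr1 stood at 111 ± 14.0 CPM under anti-G-CSFR, 116 ± 19.1 under anti-C5, 169 ± 7.19 in isotype kidneys and 105 ± 2.06 in sham kidneys (SD, n = 3 each). Tead2, Tead3 and Vgll4 did not pass the test, at log2 changes of 0.34, 0.09 and 0.10. Under each antibody against isotype 5 of the 8 fell and 0 rose.

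Of 7 genes of the Hippo kinase core, which restrains YAP, 6 rose and 0 fell (32.1% of all genes rose), with a median log2 change of 0.49 against 0.03 over all genes: the scaffold Sav1 by 1.10 ± 0.113, the LATS cofactor Mob1a by 0.63 ± 0.0950 and the kinase Stk3 (MST2) by 0.57 ± 0.120 (edgeR adjusted p = 1.28e-05, 0.000164 and 0.00143). Mob1b was not called, at −0.12, and had the opposite sign, 0.08, when scaled by library totals alone. The same number, 6, fell under each antibody against isotype.

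Of 22 upstream regulators and YAP-binding scaffolds, Ajuba and Amotl2 included, 13 rose and 2 fell, so 15 of 22 were called, near the 62.8% of all genes called either way. The median log2 change was 0.45, against 0.03 over all genes. The kinase Map4k4, which can activate LATS, rose by 1.95 ± 0.200 and the 14-3-3 gene Ywhaq by 0.69 ± 0.116 on the log2 scale (edgeR adjusted p = 1.24e-05 and 0.000333). The 2 that fell were Wwc1 and Wwc2, which encode the KIBRA family of LATS activators, at −0.35 and −0.31; neither was called when scaled by library totals alone (−0.15 and −0.11). Against isotype, 15 of the 22 fell in anti-G-CSFR kidneys and 13 in anti-C5 kidneys, and 0 rose.

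Of 25 other YAP target genes 22 were measured, and 12 rose in isotype against sham and 0 fell (median log2 change 0.60, against 0.03 over all genes). Thus 12 of 22 were called either way, no larger a share than the 62.8% of all genes, while 32.1% of all genes rose. Dock5, a Rac activator, rose by 1.09 ± 0.136, F3, which encodes tissue factor, by 2.31 ± 0.314, and Thbs1, thrombospondin 1, by 2.097 ± 0.309 (edgeR adjusted p = 4.53e-05, 7.85e-05 and 0.000134). Fosl1, an AP-1 subunit named here after its values were seen, had 0 counts in every sham kidney and a mean of 76.7 CPM in isotype kidneys, at least 1149-fold higher when the sham group is set to 3 counts over its 3 libraries. At that bound the median of the list stayed at 0.60. Outside the isotype group, Fosl1 was at 11.3 CPM in kidney 11 and at 1.59 CPM or less in the others. The third-highest CPM of every gene in the table is 2.01 or more, so Fosl1 has a row only through the isotype kidneys, where it is high. The same holds for Tgfb2 of this list, so the higher isotype levels of these genes are not separate support. Among the 10 that did not pass were Nuak2 at −0.32 and Nt5e at −0.03. Set against isotype, 15 of the 22 fell in anti-G-CSFR kidneys and 14 in anti-C5 kidneys, and 0 rose.

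Ccn4, the only further member of the CCN family with a row, rose by 1.75 ± 0.521 on the log2 scale in isotype against sham (edgeR adjusted p = 0.0117). Of the MRTF-SRF target genes, an actin-responsive group that shares inputs with YAP, 12 of 13 rose and 0 fell (32.1% of all genes rose), with a median of 1.52, which is above the 1.35 of the 8 YAP genes. Tagln, which encodes the actin-binding protein transgelin, rose by 3.43 ± 0.359, Acta2, smooth muscle actin, by 2.83 ± 0.328, and Cnn2, calponin 2, by 1.67 ± 0.187 (edgeR adjusted p = 1.40e-05, 2.72e-05 and 2.17e-05). Acta2 is also one of the 6 fibroblast and pericyte markers. Under each antibody against isotype 12 of the 13 fell. In the 3 comparisons without the isotype group, 0 genes of any of these lists were called.

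**Figure D5:**
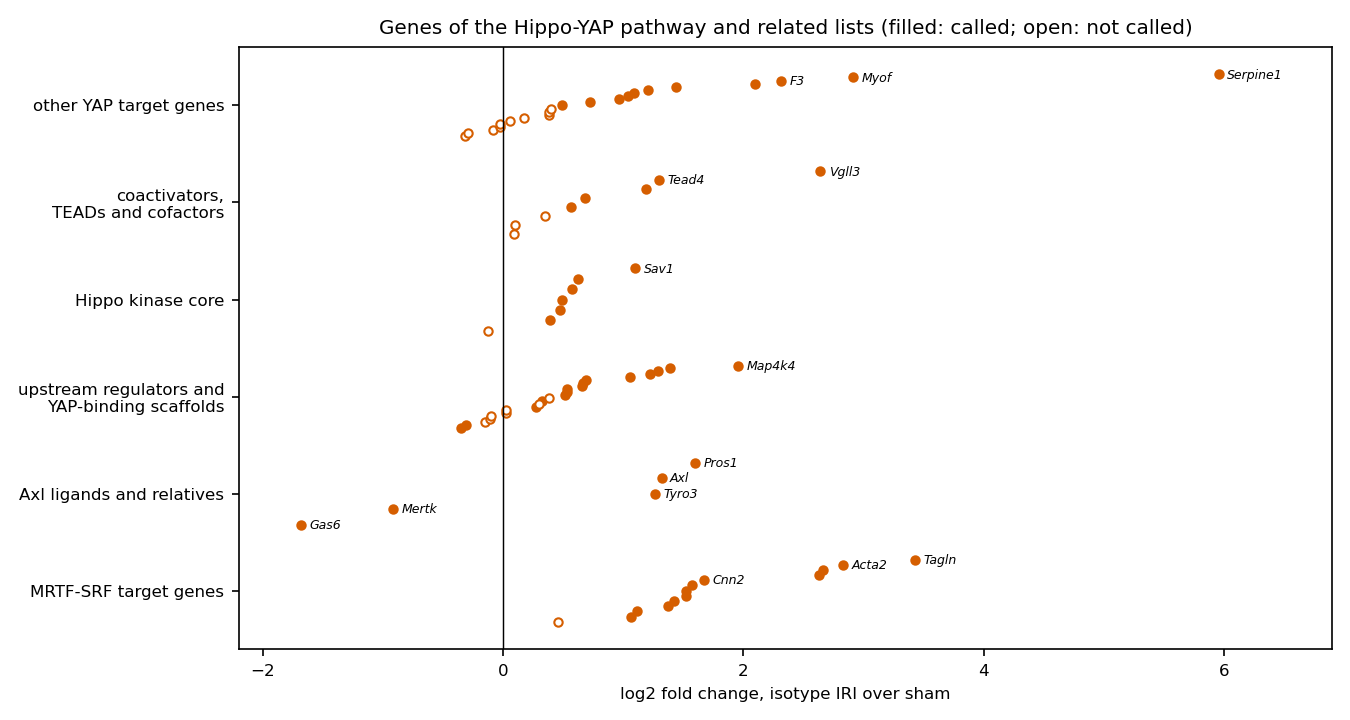
Log2 fold change, isotype IRI over sham, of every measured gene of 6 lists, 1 dot a gene (filled: called by edgeR; open: not called; Fosl1, at 0 in sham, is left out). Most dots lie right of 0, and Gas6 and Mertk lie farthest left.

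The genes whose log2 CPM ran most like each of the 8 over the 12 kidneys were looked up across the whole table. They were Rad18 for Ctgf (Pearson r = 0.989), Plekho1 for Cyr61 (0.986), Tnfrsf1a for Ankrd1 (0.988), Tmem45a for Axl (0.992), Ipo4 for Ajuba (0.995), Mars1 for Amotl2 (0.968), Nmt2 for Yap1 (0.993) and Samd4b for Tead1 (0.994). None of these 8 belongs to the 8 YAP genes. The next most alike were Ank and Zwint for Ctgf, Smpdl3b and Tnfrsf12a for Cyr61, Steap2 and Crct1 for Ankrd1, Osmr and Dse for Axl, Midn and Rrp12 for Ajuba, BC048403 and Tut1 for Amotl2, Slc39a6 and Tgfbr1 for Yap1, and Tubb2a and Itgb1 for Tead1. Among the YAP genes themselves, Cyr61 ran with Ankrd1 at r = 0.961 and Ctgf with Cyr61 at 0.844. The kidneys share one large step between isotype and the other groups, so these coefficients describe the 12 kidneys and are given without a test.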

How the data were processed

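RNA of 12 kidneys was sequenced as single-end 100 bp reads from strand-specific libraries in 1 lane, per the labels' protocols. Per the submitters' processing notes, TopHat2 2.1.0 and Bowtie2 2.2.5 aligned reads to GRCm38.p4 and featureCounts counted them; of its strand setting and annotation nothing is stated there. The authors deposited raw counts for 13124 genes by Entrez identifier. The third-highest CPM was 2.01 or more in every gene, a filter read from the values.

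Symbols came from RefSeq (GRCm38.p6), for 13074 genes, and coordinates from GENCODE vM21. Groups came from the labels, which give 3 mice a group. Pairs within a group differed beyond sampling noise (chi-square per degree of freedom 5.48 to 65.3). The fit was edgeR 4.0.16 in R 4.3.3 with TMM factors and robust quasi-likelihood over all 12 libraries (8 residual degrees of freedom, common biological variation 16.4%), with p Benjamini-Hochberg (BH) adjusted over 13124 genes, called below 0.05. The edgeR low-count filter removed no gene. The fit was tested on simulated data in which far fewer genes changed than here, in equal numbers up and down. That setting cannot test the scaling where much of the transcriptome differs. Alternatives were other scalings (RLE, upper quartile, library totals alone), a minimum of 10 CPM in 3 libraries, no filter, DESeq2 1.42.0, limma-voom (limma 3.58.1), a non-robust fit, the 6 compared libraries alone and each library left out; omitting kidneys 9 and 11 together was chosen after seeing the data.

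The 8 genes, the lists and the tests were chosen with earlier results of these data known. By rule the text names all 8, up to 3 genes a list with the smallest p in isotype against sham (any gene in lists of 8 or fewer), and the 3 genes of highest correlation with each of the 8 (log2 CPM, prior count 2). Of the genes this rule selects, 1 is not reported here. Nuak2, Nt5e, Wwc1, Wwc2, Fosl1, Tgfb2 and Sox9 were named beyond this rule after their values were seen. Promoter windows are the 250 bases before each RefSeq start.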

Additional observations from a re-analysis of the deposited data

How the results depend on the processing

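No paired analysis was possible because no kidney number occurs in 2 groups. The counts of called genes stayed at 8 in the 3 comparisons with isotype and at 0 in the others, except for 7 of 7 tested with the 10 CPM minimum (Ankrd1 removed) and 7 of 8 in anti-C5 against isotype without kidney 4, 10 or 12 (Cyr61). Of 525 values of the 8 genes in the comparisons with isotype, 522 kept direction and call, 3 lost the call and 0 changed sign. Among the 525 are values of the setting without a filter, which repeats the main fit, and of fits without a kidney of neither compared group. The former could not differ, and the latter leave both compared groups whole. With library totals as the scale, the median of all genes was 0.23, −0.23 and −0.19 in these comparisons, and no called gene of the 8 changed direction. Of 518 values in the other comparisons, 29 changed sign and 0 became called. These leave out genes to which DESeq2 gave no adjusted p, and the DESeq2 counts of 0 cover only the genes it tested. Leaving out 1 kidney gave, for anti-G-CSFR against sham, −0.20 to 0.10 (Ctgf), −0.0375 to 0.78 (Cyr61), −0.20 to 0.75 (Ankrd1), −0.22 to 0.12 (Ajuba) and −0.21 to 0.21 (Axl). For anti-C5 against sham it gave −0.14 to 0.0325 (Amotl2), −0.0204 to 0.41 (Axl) and −0.15 to 2.2e-05 (Yap1). Between the antibodies it gave −1.35 to 0.0775 (Cyr61), −1.18 to 0.34 (Ankrd1), −0.47 to 0.0774 (Axl), −0.0654 to 0.0802 (Yap1) and −0.10 to 0.24 (Tead1). Without kidneys 9 and 11 together, anti-G-CSFR against sham was −0.0372 (Cyr61), −0.20 (Ankrd1), −0.22 (Ajuba) and −0.21 (Axl), anti-C5 against sham −0.0139 (Axl) and the antibodies differed by 0.0461 (Yap1). Ajuba, anti-G-CSFR against sham, was −0.00498 with RLE factors and −0.0257 with limma-voom. The causes were not tested. Depth limits Ankrd1 most, at 1.26 to 2.08 CPM in its lower kidneys.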

Other observations

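The ratio of Ctgf to Cyr61, both in CPM and looked at after the values of kidney 4 were seen, was 1.94, 2.09 and 0.899 in anti-G-CSFR kidneys 7, 8 and 9, 2.11, 0.992 and 1.57 in anti-C5 kidneys 10, 11 and 12, 0.916, 3.88 and 4.18 in isotype kidneys 4, 5 and 6, and 2.80, 2.13 and 1.39 in sham kidneys 1, 2 and 3. It was below 1 in kidneys 4, 9 and 11 and above 1 in the other 9. These kidneys come from 3 groups and were picked by the ratio itself, so no test was made.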
